A study of Mus musculus with 20 samples.

Results

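Untreated mouse embryonic stem cell (ESC) clones built to overexpress Clock and Bmal1 were compared with untreated clones built to overexpress Clock with a dominant-negative Bmal1 (Bmal1DN), to describe how the clones differed before any transgene was switched on. The comparison rests on 4 of the 20 RNA-seq libraries of the series, chosen by their labels. They are tetO-Clock/Bmal1 ESC clones 1 and 7 and tetO-Clock/Bmal1DN ESC clones 5 and 6 (written ClockBmal1DN below), each without doxycycline (dox). The same 4 clones were also sequenced after 6 hours of 500 ng/mL dox, the drug that turns on a tetO promoter. The KY1.1 control line is present once at 500 ng/mL dox and once untreated. All 10 ESC libraries came from the mouse line KY1.1. The other 10 libraries of the series, all labelled pHes7-luc, came from presomitic mesoderm colonies of another ESC line. They are used for 1 side comparison only. Each transgenic line is a single clone, so the transgene a group carries and the history of its clones cannot be told apart. The p-values measure the spread between these clones. In the main fit the treated and untreated libraries of a clone count as independent, though they are not separate clones. Whether the KY1.1 lines were grown on feeder cells is not given in the sources used here.

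Sequencing depth was 56342830.5 and 57299360 gene-body counts in the untreated Clock/Bmal1 clones, 42723738.5 and 47489018.5 counts in the untreated ClockBmal1DN clones, and 40315227 to 49405244 counts in the other 6 ESC libraries. Of 55421 transcripts in the table, 22500 had enough counts to be tested. The ESC label held against its markers. Pou5f1, the core pluripotency factor, stood at 780 and 715 CPM (counts scaled to a common library total) in the Clock/Bmal1 clones and 802 and 728 CPM in the ClockBmal1DN clones, and Zfp42, a marker of naive ESC, at 436 and 336 against 435 and 357 CPM.

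The clearest difference between the clones lay in the imprinted Dlk1-Dio3 region of mouse chromosome 12. An imprinted gene is read from a single parental copy. In this region the maternal copy gives a chain of noncoding RNAs on the plus strand, namely Meg3, Rian, which is the host of a cluster of C/D-type small nucleolar RNAs, and Mirg, which is the host of a cluster of microRNAs (miRNAs). The paternal copy gives the protein-coding genes Dlk1, Rtl1 and Dio3. A methylated control element upstream of Meg3 decides which set is read, and in mouse pluripotent lines the maternal RNAs are known to be on in some lines and silent in others.

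The start of Meg3 is shown because Meg3 is the first of the plus-strand RNAs that moved together. The sequence runs from 250 bases before to 50 bases after the RefSeq start, at chr12:109540746-109541045 on the plus strand of GRCm38.p6. Capitals mark the matches to the motifs searched on both strands, TGACGTCA (the cAMP response element), CACGTG (the E-box bound by CLOCK and BMAL1) and TATAAA (the TATA box).
Meg3 promoter: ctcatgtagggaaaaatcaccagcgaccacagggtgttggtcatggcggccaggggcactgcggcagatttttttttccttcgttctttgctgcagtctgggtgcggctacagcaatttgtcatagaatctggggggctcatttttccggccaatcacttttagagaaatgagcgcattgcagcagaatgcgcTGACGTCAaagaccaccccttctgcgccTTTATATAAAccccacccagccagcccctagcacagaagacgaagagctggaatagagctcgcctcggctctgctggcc
The window held 1 cAMP response element, which begins at -57 from the start, and 2 TATA-box matches that overlap each other on opposite strands, the first at -29. It held 0 E-boxes of this spelling and 13 CpG dinucleotides. Of 32851 RefSeq promoter windows of this length, 1.79% held TGACGTCA, 13.6% TATAAA and 7.15% CACGTG. The windows of Rian and Mirg held 0 matches to these motifs, with 0 CpG dinucleotides for Rian and 10 for Mirg. A match in letters says nothing of binding in these cells.

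The region's miRNAs are processed from the plus-strand RNAs. All 57 annotated plus-strand precursors between Meg3 and Mirg were matched to RefSeq, with 105 named mature sequences that carry 97 distinct seeds. A seed, bases 2 to 8, is what a miRNA pairs to its targets with. The mature sequences of the 6 precursors with the most counts in the untreated ClockBmal1DN clones are shown with the seed in capitals. The choice used the group in which the block is high, so it tilts their difference between the groups.
mmu-miR-3070-5p: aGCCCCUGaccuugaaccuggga
mmu-miR-3070-3p: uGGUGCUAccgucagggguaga
mmu-miR-3070-2-3p: uGGUGCUAuggucagggguaga
mmu-miR-433-5p: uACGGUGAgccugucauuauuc
mmu-miR-433-3p: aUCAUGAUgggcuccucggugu
mmu-miR-1197-5p: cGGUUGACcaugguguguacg
mmu-miR-1197-3p: uAGGACACauggucuacuucu
mmu-miR-432: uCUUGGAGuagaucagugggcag
mmu-miR-485-3p: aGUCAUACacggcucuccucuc
The 3p arms of the miR-3070 precursors share a seed, and the miR-3070-5p sequence is the same from both. The cluster holds 8 seeds carried by more than 1 mature name. Among them, miR-1197-5p shares its seed with miR-758-5p, miR-376b-5p with miR-376c-5p, and miR-379-3p with miR-411-3p. The libraries count reads over precursors and hosts, so nothing here measures the mature miRNAs.

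Across all genes, few passed between the untreated clones. With edgeR's quasi-likelihood test 2 of 22500 genes passed a Benjamini-Hochberg adjusted p of 0.05, which is 0.00889% of those tested. Both were lower in the Clock/Bmal1 clones, both lie in the Dlk1-Dio3 region, and 0 genes were higher. At an unadjusted p under 0.05 there were 358 genes, or 1.59%. That is below the share of 0.05 that an exact test would give on genes without any difference. The fit was thus cautious, and 0 calls in a gene list do not show that its genes were equal. DESeq2 called 9 genes. Of these, 8 were lower and in the same region, and the other was Fmr1nb on chromosome X, a gene of the Fmr1 neighbourhood expressed mainly in testis, which was higher.

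**Figure D1:**
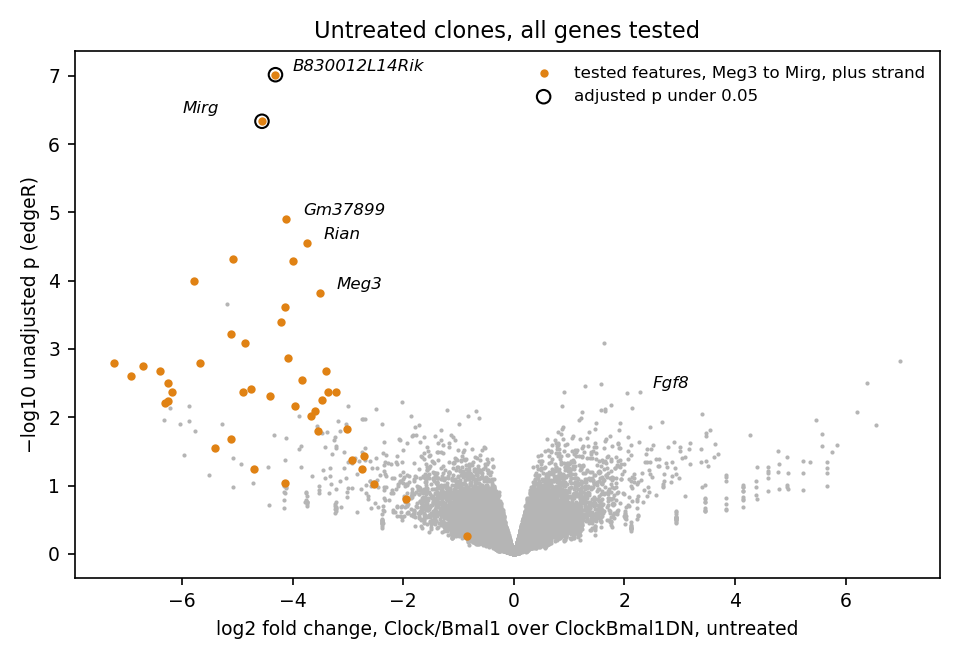
Each point is 1 of 22500 genes in the untreated comparison, with the log2 fold change of Clock/Bmal1 over ClockBmal1DN clones on the x axis and minus log10 of the unadjusted edgeR p on the y axis. Orange points are the tested plus-strand features from Meg3 to Mirg, which lie to the left of 0, and circles mark the 2 genes that passed, B830012L14Rik and Mirg.

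Mirg had 3.70 and 6.12 CPM in the Clock/Bmal1 clones, against 96.9 and 133.9 CPM in the ClockBmal1DN clones. Both Clock/Bmal1 clones were far below both ClockBmal1DN clones and below the untreated control line, at 59.2 CPM. The means were 4.91 ± 1.71 and 115.4 ± 26.2 CPM (SD, n = 2 each). Mirg was 23.5-fold lower in the Clock/Bmal1 than in the ClockBmal1DN clones (log2 fold change -4.55 ± 0.370 SE, edgeR adjusted p = 0.00522). B830012L14Rik, a long noncoding RNA gene between Rian and Mirg named here after its values were seen, had 2.25 and 3.11 CPM in the Clock/Bmal1 clones and 43.8 and 62.8 CPM in the ClockBmal1DN clones. The groups were again far apart, with the control line between them at 27.2 CPM. B830012L14Rik was 19.8-fold lower in the Clock/Bmal1 than in the ClockBmal1DN clones (-4.31 ± 0.293, edgeR adjusted p = 0.00217).

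The other long RNAs of the chain had differences of like size that did not pass. Rian had 20.9 and 48.1 CPM in the Clock/Bmal1 clones, 375.6 and 542.3 CPM in the ClockBmal1DN clones and 207.6 CPM in the control line (-3.73 ± 0.493, unadjusted p = 2.85e-05, adjusted p = 0.16). Meg3 had 1.41 and 2.68 CPM in the Clock/Bmal1 clones, 22.0 and 24.7 CPM in the ClockBmal1DN clones and 18.0 CPM in the control line (-3.51 ± 0.573, unadjusted p = 0.000152, adjusted p = 0.427). Neither gene's groups overlapped, and the control line lay above both Clock/Bmal1 clones and below both ClockBmal1DN clones in each. Gm37899, which lies between Rian and B830012L14Rik, had 0.397 and 0.841 against 10.1 and 11.5 CPM (-4.12 ± 0.492, adjusted p = 0.0942). Summed over these 5 long RNAs, the Clock/Bmal1 clones held 28.6 and 60.9 CPM and the ClockBmal1DN clones 548.4 and 775.3 CPM, with 317.1 CPM in the control line. Clone 7 was above clone 1 for each of the 5, and clone 6 above clone 5.

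The calls were thin. Without untreated clone 1 the adjusted p was 0.056 for Mirg and 0.0497 for B830012L14Rik, and a fit of the 4 compared libraries alone called 0 genes, with an adjusted p of 0.211 for both and 377 genes at an unadjusted p under 0.05. DESeq2 called all 5 long RNAs, with adjusted p from 1.84e-42 for B830012L14Rik to 6.46e-11 for Meg3.

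**Figure D2:**
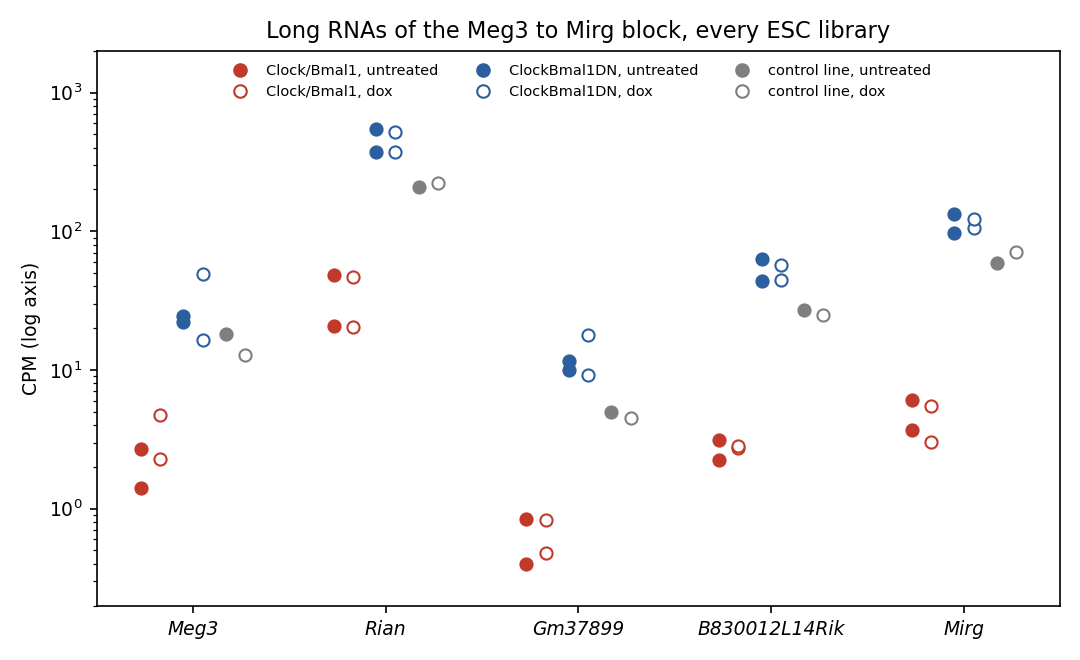
CPM on a log axis for the 5 long plus-strand RNAs in all 10 ESC libraries, with Clock/Bmal1 clones in red, ClockBmal1DN clones in blue and the control line in grey. Filled points are untreated and open points dox libraries. For each RNA the 4 red points lie below all 6 others.

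The low levels covered the whole plus-strand block from Meg3 to Mirg, 208 kb in the authors' mm10 coordinates. Of its 90 annotated features, 86 had counts in the untreated clones. Both Clock/Bmal1 clones were below both ClockBmal1DN clones in 70 of these 86, above in 0, and 16 overlapped. Among all 34368 features with counts in these libraries, 12% were lower without overlap. The 70 features are not independent, because small RNAs nested in Rian, B830012L14Rik or Mirg are counted from the same host transcripts. Over the block, summed counts were 1642.5 and 3522 in the Clock/Bmal1 clones and 24552 and 37065 in the ClockBmal1DN clones.

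Of the 57 miRNA precursors, 40 were lower without overlap, 13 overlapped and 4 had no counts. Mir433, the precursor of miR-433, had 1 and 1 counts in the Clock/Bmal1 clones, against 30.5 and 32.5 counts in the ClockBmal1DN clones. Mir3070b had 1.5 and 0 against 32.5 and 31 counts, and Mir3070a had 1 and 0.5 against 25 and 32.5 counts. Mir1197 had 0 and 1 against 10.5 and 44.5 counts, with the ClockBmal1DN clones far from each other. Among the 6 precursors shown above, Mir485 had the most in a Clock/Bmal1 clone, 3.5 counts in clone 7. None of these precursors passed (for Mir433 edgeR adjusted p = 0.195), and with counts this low no fold is given. They were chosen by their ClockBmal1DN counts, so their values are no support for the low levels. The small nucleolar RNA gene Gm24895, nested in Rian, had 21.5 and 44 against 353.5 and 490.5 counts (-3.99 ± 0.567, adjusted p = 0.195).

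**Figure D3:**
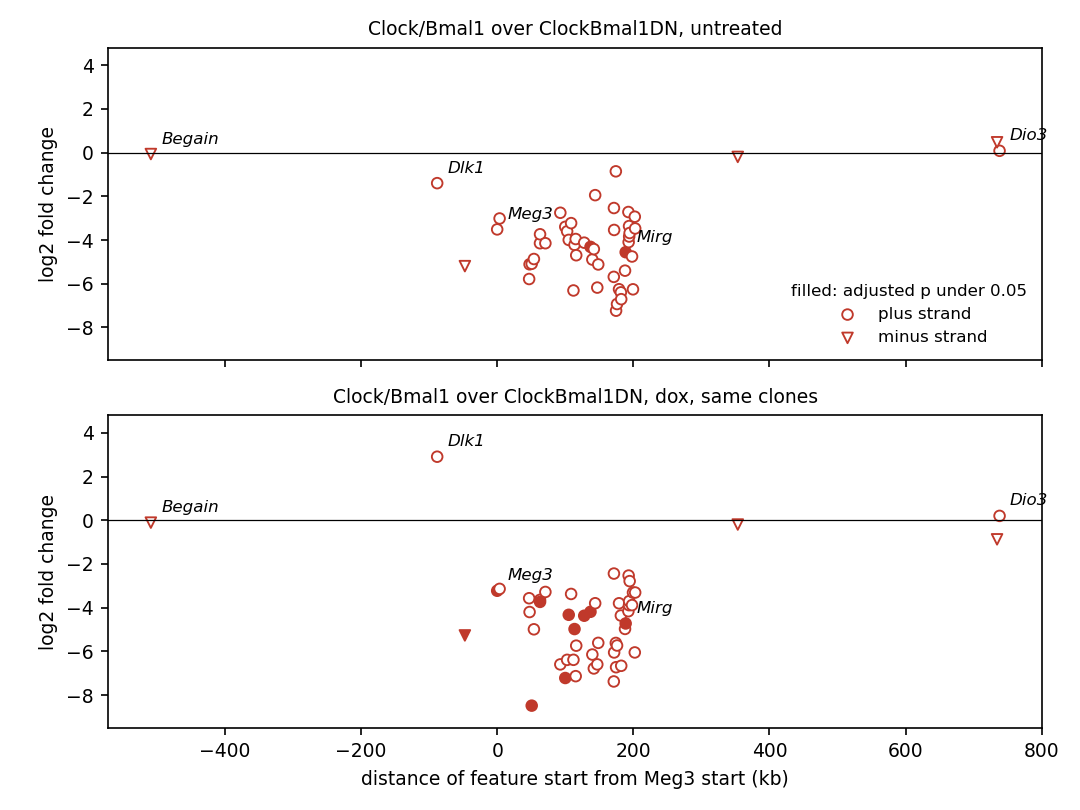
Log2 fold change of Clock/Bmal1 over ClockBmal1DN clones for the tested features from Begain to Dio3, against the distance of each feature's lower coordinate from the Meg3 start in kb. The upper panel shows untreated and the lower panel dox-treated libraries, with circles for the plus strand, triangles for the minus strand and filled symbols for an adjusted p under 0.05. The features from Meg3 to Mirg lie below 0 in both panels, while Begain and Dio3 lie near 0.

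Outside this block the values were mixed. Dlk1, a paternally expressed membrane protein gene related to Notch ligands, had only 14 and 21 counts in the Clock/Bmal1 clones and 32 and 42 counts in the ClockBmal1DN clones (-1.40 ± 0.742, adjusted p = 1). Dio3, which encodes a deiodinase that inactivates thyroid hormone, had 90 and 103 against 71 and 74 counts (0.09 ± 0.372, adjusted p = 1), and Rtl1, a retrotransposon-derived gene, had too few counts to test, at 0 and 5 against 7.5 and 8. Gm34081 is a minus-strand gene whose lower coordinate, its far end in transcription, lies -47.5 kb from the Meg3 start. It had 0 and 3 counts in the Clock/Bmal1 clones, 45.5 and 50 counts in the ClockBmal1DN clones and 70 counts in the untreated control line (edgeR adjusted p = 0.539). Of 120 features from Begain to Dio3, 51 were tested. Begain itself, at the start of the region, had 50 and 57 against 46 and 43 counts. The flanking genes Wars, Wdr25, Ppp2r5c and Dync1h1 had log2 fold changes between -0.13 and -0.01.

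The dox libraries of the same clones are separate RNA samples, but they come from the same 4 clones and carry the induced transgenes. They also lent their spread to the fit of the untreated clones, and the genes and tests were chosen with earlier results known. They are therefore no independent support for the untreated difference. In the dox libraries 155 of 22500 genes passed, or 0.689%, with 135 higher and 20 lower (0.0889%). Of the 20 lower genes, 10 lie in the Dlk1-Dio3 region, including all 5 long RNAs of the chain and Gm34081. Mirg had 3.04 and 5.54 CPM in treated Clock/Bmal1 clones and 104.8 and 122.2 CPM in treated ClockBmal1DN clones, a 26.5-fold difference (adjusted p = 0.00141). Rian had 20.4 and 46.5 against 375.4 and 516.5 CPM (13.3-fold lower, adjusted p = 0.0121), and Meg3 had 2.29 and 4.72 against 16.4 and 49.2 CPM (9.37-fold lower, adjusted p = 0.0424). Each clone kept close to its own untreated level of Rian and Mirg, and the change of the difference with dox was -0.00 ± 0.626 for Rian and -0.17 ± 0.460 for Mirg on the log2 scale (SE), in a fit whose error holds the spread between clones. With clone as a fixed block, an alternative chosen after seeing the data, it was -0.01 ± 0.237 for Rian and -0.20 ± 0.262 for Mirg. That fit leaves only 2 residual degrees of freedom, against 4 in the main fit. Of all genes tested, 13 passed for a change of the difference with dox, or 0.0578%, and 25 with clone as a fixed block. None of the 5 long RNAs passed in either fit. Meg3 kept its level less closely, with 24.7 CPM without and 49.2 CPM with dox in clone 6. Its level was also higher with dox in clones 1 and 7, but lower in clone 5, at 22.0 CPM without and 16.4 CPM with dox. The change of its difference with dox was 0.28 ± 0.742 in the main fit. The calls of Meg3 and Rian with dox depended on single libraries. Meg3 lost its call without any of the 4 treated libraries (adjusted p between 0.0909 and 0.365), and Rian lost its call without treated clone 1, 5 or 6 (adjusted p up to 0.129). In the treated libraries both Clock/Bmal1 clones were below both ClockBmal1DN clones in 64 features of the block, where 13.8% of all 33767 features with counts were.

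Dlk1 did not follow the block. With dox it had 424 and 434 counts in the Clock/Bmal1 clones and 14 and 100 counts in the ClockBmal1DN clones (2.91, adjusted p = 0.154), so its order between the groups was opposite to that without dox.

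When all ESC libraries were set side by side, few genes set the Clock/Bmal1 clones apart from every other library. A gene was counted if all 4 Clock/Bmal1 libraries, treated and untreated, were at least 2-fold below each of the other 6 ESC libraries, the control line included, after 0.5 CPM was added to every value. Among 16485 genes with at least 1 CPM in some library 7 met this, and all 7 lie in the Dlk1-Dio3 block: Mirg, B830012L14Rik, Rian, Gm37899, Gm24895, Meg3 and Gm27350. Without the added 0.5 CPM 9 genes met it, with Mir433 and Gm34081 besides, the second of them before Meg3 but within the Dlk1-Dio3 region. In the opposite direction there were 0 genes either way. The 5 features whose log2 CPM ran most like that of Meg3 over the 10 ESC libraries were Mir377, Gm37899, Gm27350, Rian and B830012L14Rik, all in the same block, with Pearson r between 0.958 and 0.981. These features share a strand and in part their reads, and the libraries share clones.

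In the presomitic mesoderm libraries, made from pHes7-luc clones of another ESC line, the Clock/Bmal1 and ClockBmal1DN clones showed no such gap. There Meg3 had 138 and 110 CPM in untreated Clock/Bmal1 clones and 131 and 113 CPM in untreated ClockBmal1DN clones. Mirg had 115 and 174 against 161 and 133 CPM. The untreated control of these libraries had 172 CPM of Meg3 and 124 CPM of Mirg. Both the cell type and the parental line differ from those of the ESC. Whether the transgenes bear on the ESC gap was not tested.

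Fibroblasts also express RNAs of this region, and fibroblast genes differed between the ESC libraries, so both are given side by side. Summed over 30 fibroblast genes, the untreated Clock/Bmal1 clones 1 and 7 held 2277 and 5382 CPM and the untreated ClockBmal1DN clones 5 and 6 held 2659.8 and 10179.9 CPM. Clones 1 and 5, with nearly equal fibroblast sums, had 20.9 and 375.6 CPM of Rian. In clone 6 the fibroblast sum was 1969 CPM with dox and 10179.9 CPM without, while Rian was 516.5 CPM with dox and 542.3 CPM without. Without untreated clone 6 the same 2 genes passed. The part of fibroblast RNA in the region's levels was not tested.

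Imprinting in the rest of the genome showed 0 calls. Of 17 maternally expressed imprinted genes elsewhere, 17 were tested and 0 passed, with 1 at an unadjusted p under 0.05. Of 28 paternally expressed genes 26 were tested and 0 passed, with 2 at an unadjusted p under 0.05. DESeq2 called 0 of either list as well. The median log2 fold changes were -0.08 and 0.02, beside -0.01 over all genes tested. H19, the maternally expressed noncoding RNA next to Igf2, had 69.1 and 84.5 CPM in the Clock/Bmal1 clones and 94.8 and 233.6 CPM in the ClockBmal1DN clones (-1.10 ± 0.387, unadjusted p = 0.0191). Its gap came mainly from clone 6, the library with the highest sum over the fibroblast genes, and a link between these values was not tested. Peg13, a paternally expressed noncoding RNA, had 0.829 and 1.45 against 2.08 and 3.46 CPM (unadjusted p = 0.0332). Ndn, a paternally expressed gene, had 14.5 and 26.8 against 17.3 and 43.3 CPM, and Tfpi2, a maternally expressed protease inhibitor, had 0.433 and 0.913 against 0.886 and 2.16 CPM, with overlapping groups in both. Nap1l5 was the third gene at an unadjusted p under 0.05, with at most 0.325 CPM in any untreated clone.

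Genes that maintain imprints or set DNA methylation gave 0 calls. Of 13 tested, 0 passed with edgeR or DESeq2, 0 had an unadjusted p under 0.05, and the median log2 fold change was 0.03. Zfp57, the zinc-finger protein that protects imprints after fertilisation, had 99.8 and 66.3 CPM in the Clock/Bmal1 clones and 117.9 and 79.6 CPM in the ClockBmal1DN clones. Dnmt3a, a de novo DNA methyltransferase, had 182.7 and 171.5 against 137.1 and 144.2 CPM, without overlap (0.33 ± 0.216, adjusted p = 1). Dppa3, which shields methylation in the early embryo, had 99.6 and 54.7 against 104.3 and 83.0 CPM.

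Fibroblast genes marked single libraries rather than a group. Of 30 such genes, collagens and other matrix and mesenchymal genes, 0 passed with edgeR or DESeq2 and 0 reached an unadjusted p under 0.05. All 30 had a negative log2 fold change, between -1.09 and -0.26 with a median of -0.74, but in none did the groups separate. Col5a2, a fibrillar collagen, had 116.3 and 376.2 CPM in the Clock/Bmal1 clones and 189.3 and 826.3 CPM in the ClockBmal1DN clones. S100a4, also called fibroblast-specific protein, had 31.1 and 99.5 against 29.2 and 248.5 CPM. In each pair the second clone was the high one. Untreated clone 6 was the highest of all 10 ESC libraries for 28 of the 30 genes, and clone 7 came next in the list's sum.

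The excess in clone 7 was there in both of its libraries, at 5702 CPM summed with dox and 5382 CPM without. That in clone 6 was not, and its treated library had 14.3 CPM of S100a4 and 84.7 CPM of Col5a2. Leaving out untreated clone 6 turned the log2 fold change to 1.16 for S100a4 and 0.38 for Col5a2. Lum, a defining fibroblast proteoglycan gene, was present at 0.180 and 0.877 against 0.0233 and 1.26 CPM, and was at 0 in the untreated control line. Other genes were high in the same library. Xist, the X-inactivation RNA, had 22.7 CPM in untreated clone 6, the highest of the 10 libraries, and 2.61 CPM in its treated library. Pdgfra and Col4a2, listed as primitive endoderm genes but read in fibroblasts too, had 16.5 and 77.2 CPM in untreated clone 6. Whether cells of another type were present or the ESC themselves differed was not tested, and in bulk RNA more cells and more RNA per cell cannot be told apart.

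**Figure D4:**
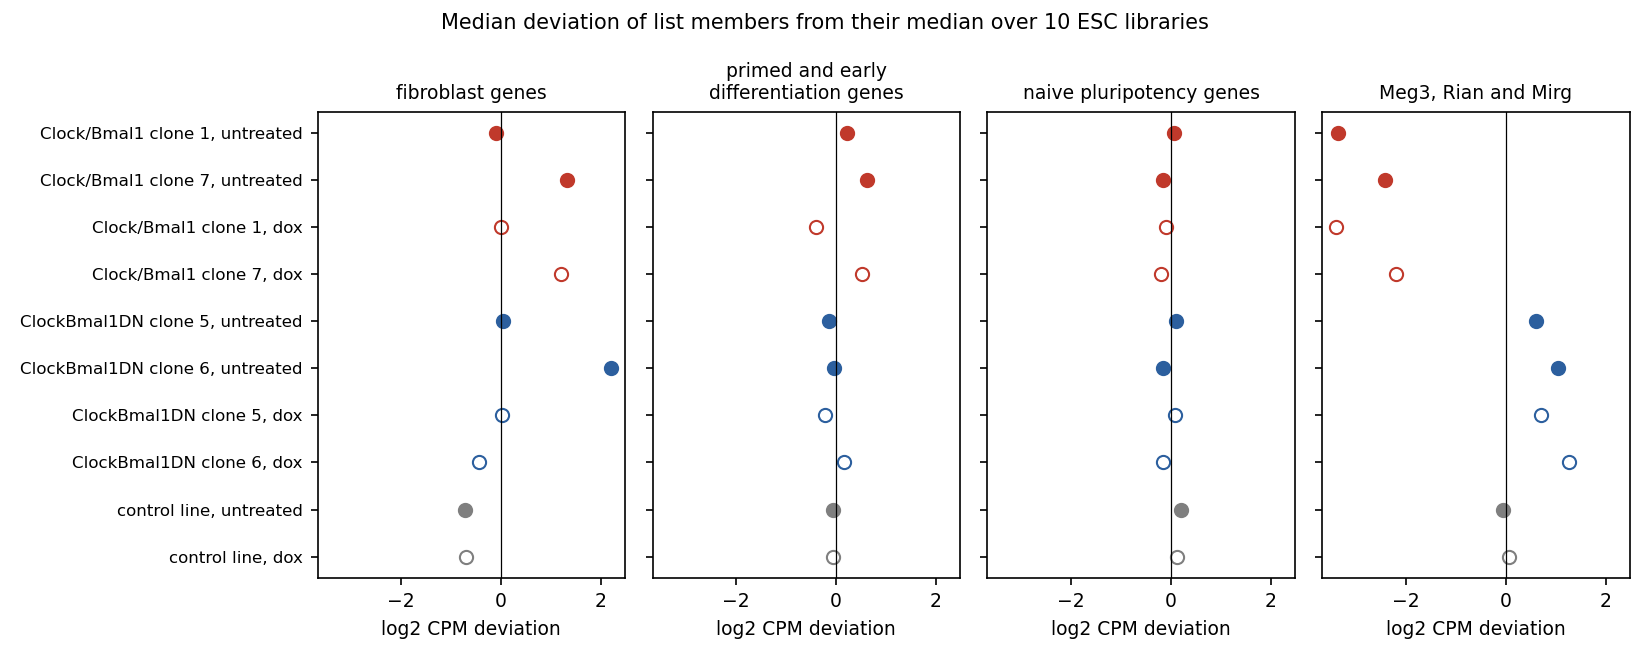
For 4 gene lists, the median over members of the log2 CPM deviation from each gene's median over the 10 ESC libraries (x axis, on 1 common scale), 1 row per library. Clock/Bmal1 libraries are red, ClockBmal1DN blue and control grey, with open circles for dox. Fibroblast genes single out untreated clone 6 and both libraries of clone 7, while Meg3, Rian and Mirg split the Clock/Bmal1 libraries from the rest.

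Genes of the naive pluripotent state showed 0 calls. Of 24 tested, 0 passed with edgeR or DESeq2, 0 had an unadjusted p under 0.05, and the median log2 fold change was -0.03. Nanog had 124.1 and 84.7 CPM in the Clock/Bmal1 clones and 116.0 and 87.1 CPM in the ClockBmal1DN clones. The 2 members with the largest differences were Nr0b1 (Dax1), a nuclear receptor of ESC, with 105.9 and 64.2 against 131.8 and 97.3 CPM, and Nr5a2, a receptor that drives Pou5f1, with 29.1 and 30.6 against 29.2 and 18.2 CPM.

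In the untreated libraries, genes of the primed epiblast and early gastrulation leaned to the Clock/Bmal1 clones without passing. Of 16 tested, 15 had a positive log2 fold change, with a median of 0.53, and 11 were higher without overlap, where 16.1% of all genes tested were. Of these 16, 0 passed with edgeR or DESeq2 and 3 had an unadjusted p under 0.05. Fgf8, a growth factor of the primitive streak, had 1.84 and 5.69 CPM in the Clock/Bmal1 clones and 0.677 and 0.871 CPM in the ClockBmal1DN clones (2.28 ± 0.606, unadjusted p = 0.00426, adjusted p = 1). T (Brachyury), the early mesoderm factor, had 11.6 and 37.3 against 6.25 and 7.99 CPM (1.78 ± 0.676, unadjusted p = 0.0267). Lefty2, a Nodal inhibitor, had 91.2 and 103.4 against 40.4 and 66.4 CPM (unadjusted p = 0.00674). The control line, at 15.8 CPM of T and 1.61 CPM of Fgf8, was above both ClockBmal1DN clones for these genes, while its Lefty2, at 45.5 CPM, lay between them. Over the list, the median log2 deviation from the 10-library median was 0.21 and 0.62 in the Clock/Bmal1 clones, -0.15 and -0.03 in the ClockBmal1DN clones and -0.05 in the control line. Clone 7 carried most of the T and Fgf8 difference. With dox the list's median log2 fold change was 0.14, and 1 member passed with edgeR, higher in the Clock/Bmal1 clones. The median deviations with dox were -0.41 in clone 1 and 0.52 in clone 7, against -0.22 in clone 5 and 0.15 in clone 6. The lean was thus kept in clone 7 and not in clone 1.

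Markers of other lineages gave 0 calls. Of 15 primitive endoderm genes, 9 trophoblast genes, 2 tested genes of the two-cell-like state and 15 tested germline genes that DNA methylation keeps silent, 0 passed with edgeR or DESeq2 and 0 had an unadjusted p under 0.05. Cdx2, a trophoblast and posterior mesoderm factor, had 2.52 and 8.09 CPM in the Clock/Bmal1 clones and 2.01 and 1.92 CPM in the ClockBmal1DN clones. Krt8, a simple-epithelium keratin, had 426.8 and 547.5 against 395.2 and 317.7 CPM. Among germline genes, Slc25a31, a testis adenine nucleotide carrier, had 1.41 and 1.29 against 2.38 and 2.53 CPM (-0.86 ± 0.384), and Mael, a piRNA pathway gene, had 15.2 and 8.52 against 13.9 and 17.8 CPM.

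Clock and Arntl, the genes whose products the transgenes encode, gave 0 calls without dox. Clock had 39.6 and 59.2 CPM in the Clock/Bmal1 clones, 35.7 and 39.7 CPM in the ClockBmal1DN clones and 29.3 CPM in the control line (0.39 ± 0.537, adjusted p = 1). Arntl, the mouse gene of BMAL1, had 45.4 and 48.2 against 54.6 and 44.4 CPM, with 38.9 CPM in the control line. With dox, when transgene reads add to these counts, Arntl stood at 2203 and 4135 CPM in the Clock/Bmal1 clones and 1615 and 4068 CPM in the ClockBmal1DN clones. Arntl2, the paralog of Arntl, had 7.64 and 6.12 against 10.9 and 8.49 CPM.

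Circadian genes driven through E-boxes, the sites that CLOCK and BMAL1 bind, had 0 calls among 19 without dox with edgeR or DESeq2. Their median log2 fold change was -0.27, and 14 were negative. Cry1, a clock repressor, had 28.9 and 19.6 CPM in the Clock/Bmal1 clones and 49.9 and 35.6 CPM in the ClockBmal1DN clones (-0.82 ± 0.252, unadjusted p = 0.00947), and Tef, a clock-driven PAR bZIP factor, had 22.3 and 28.6 against 37.5 and 41.1 CPM (unadjusted p = 0.0103). These were the 2 members at an unadjusted p under 0.05. Dbp, another PAR bZIP factor, had 3.86 and 3.78 against 7.74 and 5.75 CPM, Per2, a repressor, 0.757 and 0.734 against 1.31 and 1.07 CPM, and Nr1d1, the repressor REV-ERB alpha, 1.69 and 1.77 against 1.91 and 2.31 CPM. The Clock/Bmal1 clones were the lower ones in each of these 5 genes, without overlap, as they were in 6 of the 19 list members, where 13.2% of all genes tested were lower without overlap.

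Stress and signalling lists gave no member that passed with edgeR or DESeq2 and 0 at an unadjusted p under 0.05. They held 15 immediate early genes, 12 targets of p53, 14 genes of hypoxia and glycolysis, 12 genes of the integrated stress response and 9 tested mitochondrially encoded genes. Of the p53 targets 11 had a negative log2 fold change, with a median of -0.27 without dox and -0.04 with dox, and 7 of the 12 were lower without overlap, where 13.2% of all genes tested were. Untreated clone 6, the library with the highest sum over the fibroblast genes, was the highest of the 10 libraries for 7 of the 12. Its p53 list sum was 2051 CPM, against 1427 CPM in its treated library, and the part of this library in the list's values was not tested. Phlda3 had 64.6 and 94.2 CPM in the Clock/Bmal1 clones and 94.9 and 163.7 CPM in the ClockBmal1DN clones, and Cdkn1a, the cell-cycle inhibitor p21, 4.31 and 7.64 against 4.85 and 11.5 CPM. Adm, the hypoxia-responsive peptide adrenomedullin, had 2.83 and 12.1 against 4.99 and 25.3 CPM, highest in the libraries that also had the highest sums over the fibroblast genes. A link between these values was not tested. Egr2 and Atf3, inducible transcription factors, had log2 fold changes of -0.61 and 0.51, Ankrd37 0.25, Chac1 and Slc7a11, genes of amino acid stress, 0.60 and 0.52, and mt-Nd5 and mt-Cytb 0.25 and 0.20. Of 6 tested Y-linked genes and 4 genes of X inactivation, 0 passed and 0 had an unadjusted p under 0.05, with log2 fold changes of -0.39 for Kdm5d, 0.95 for Zfy1 and 0.52 for Ftx.

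Between single untreated clones the spread was of like size within and across the groups, with 1 closer pair. Over 14814 genes with a mean of at least 1 CPM, the median absolute log2 difference was 0.211 between clones 7 and 1 and 0.198 between clones 6 and 5. Across the groups it was 0.215 between clones 1 and 6, 0.205 between clones 7 and 5, 0.212 between clones 7 and 6, and 0.115 between clones 1 and 5. On the first principal component of the 10 ESC libraries, which held 34.5% of the variance, clones 1 and 7 lay at -15.5 and 23.2 and clones 5 and 6 at -15.5 and 27.7. Without dox that axis paired clone 1 with clone 5 and clone 7 with clone 6, across the groups. With dox clones 1 and 7 lay at 16.3 and 52.7 and clones 5 and 6 at -17.8 and 1.85, so the pairing was not kept.

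Clone 7 differed from clone 1 along the whole of chromosome 8. Over 783 genes of that chromosome the median log2 difference of clone 7 minus clone 1 was 0.47 with dox and 0.48 without, that is 1.39-fold and 1.40-fold, and 92.5% of the genes were above clone 1 without dox. On the 19 other chromosomes (autosomes and X) the median lay between -0.07 and 0.04 without dox. In windows of 20 Mb the untreated median lay between 0.44 and 0.56 from the start of the chromosome to its end. Clones 6 and 5 differed by -0.00 on chromosome 8. The group difference on chromosome 8 was therefore 0.24, carried by clone 7, and leaving the 783 genes and all others of that chromosome out of the fit kept the same 2 calls.

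**Figure D5:**
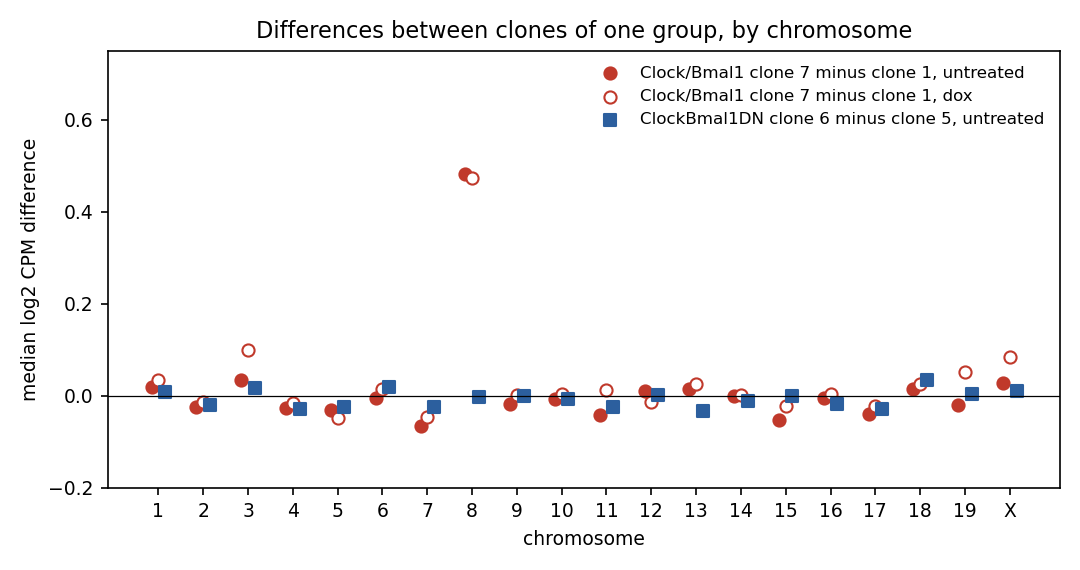
Median log2 CPM difference between clones of a group for each chromosome, with Clock/Bmal1 clone 7 minus clone 1 in red (filled untreated, open dox) and ClockBmal1DN clone 6 minus clone 5 in blue squares. Chromosome 8 stands at 0.48 and 0.47 in clone 7, while the untreated medians of the 19 other chromosomes shown lie between -0.07 and 0.04.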

How the data were processed

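Total RNA of the ESC was made into stranded paired-end libraries, per the labels' protocols. The submitters' processing notes name bcl2fastq, STAR 2.7.2a, HOMER and the mm10 genome. The authors' deposited table holds, per transcript, gene-body expected counts in steps of 0.5 with no normalisation, per the file headers. The same table's deposited rpkm columns were not used. Counts include introns and any transgene reads, and small genes share reads with their hosts.

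Counts were rounded to whole numbers. All 10 ESC libraries were fitted as 6 groups with edgeR 4.0.16 (R 4.3.3, TMM, filterByExpr, glmQLFit, glmQLFTest, two-sided), which leaves 4 residual degrees of freedom. This fit has no clone term and takes the treated and untreated libraries of a clone as independent. The threshold was 0.05 on Benjamini-Hochberg adjusted p. SE was taken from the log2 fold change and its F statistic. CPM values use TMM-scaled library totals. Counts were also simulated with the spread of these libraries, but each library was drawn independently, without the clones that the real libraries share. In that simulation 64 of 100 genes changed by 2 on the log2 scale and 87 of 100 changed by 4 were called. Besides these, 10 unchanged genes were called, with 21482 genes fitted in all, changed ones included. With that many genes called, the adjustment for multiple tests is looser than with the 2 calls of the real untreated comparison. The shares for the real libraries may therefore be lower, and they are not the power of that comparison. Alternatives used limma 3.58.1 and DESeq2 1.42.0. Promoter and miRNA sequences are RefSeq's (GRCm38.p6).

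The members, gene lists and tests were chosen with earlier results of these data known. Named genes were Meg3, Mirg, Rian, Dlk1, Rtl1, Dio3, Clock, Arntl, Per2, Dbp and Nr1d1, up to 10 passing genes a direction with an established symbol, and from each of 21 lists the 4 members with the smallest p that passed or, failing those, the 2 with the largest difference and at least 1 CPM. Others were named after their values were seen.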

Additional observations from a re-analysis of the deposited data

Results flagged for a closer look

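How far Clock/Bmal1 clones stood from ClockBmal1DN clones changed with dox for 13 of 22500 genes (0.0578%, edgeR), and 2 of these are among the genes always named. For Dbp the change was 6.01 ± 0.702 on the log2 scale (SE, adjusted p = 0.0295). It had 49.3 and 54.4 CPM in treated Clock/Bmal1 clones and 2.27 and 0.569 CPM in treated ClockBmal1DN clones, against 3.86 and 3.78 and 7.74 and 5.75 CPM without dox. For Nr1d1 the change was 5.12 ± 0.541 (adjusted p = 0.0251), with 22.2 and 15.6 against 0.888 and 0.427 CPM in treated clones and 1.69 and 1.77 against 1.91 and 2.31 CPM in untreated clones. With clone as a fixed block both passed as well (6.21 ± 0.495 for Dbp and 5.14 ± 0.519 for Nr1d1, adjusted p = 0.00525 and 0.0136). That fit leaves only 2 residual degrees of freedom. The control line, sequenced once in each state, had 7.57 CPM of Dbp with dox and 6.38 CPM without. Its Nr1d1 was 1.63 CPM with dox and 1.91 CPM without. By design dox switches on different transgenes in the groups, so the clones' own response and the transgenes' action cannot be told apart.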

How the results depend on the processing

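Of the calls without dox, B830012L14Rik and Mirg passed with RLE factors, library totals alone, counts rounded down, robust estimation, without chromosome 8 (an alternative chosen after seeing the data), and with clone as a block. The count was 2 in the main setting, 45 (11 higher) without the low-count filter, 9 with DESeq2, 0 with the 4 libraries alone, and 1 to 2 without one replicate each. With dox it was 155, against 728 without the filter, 418 with DESeq2, and 14 to 113 without one replicate each. The lone clone then left in a group is assumed to vary like the others. The change with dox had 13 calls, against 130 with DESeq2 and, both chosen after seeing the data, 14 with clone as a random and 25 as a fixed replicate block. The compared groups share no clone numbers, so no pairing between them was possible. Clone as a replicate block across dox states in limma voom (correlation 0.224) gave 3 calls without dox, Rian added (adjusted p = 0.0401), and 142 with dox.

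Named genes that changed sign, none of which passed, did so only when a replicate was left out. Their log2 fold change without dox spanned -0.0098 to 0.17 for Dio3, -0.77 to 0.088 for Dppa3, -0.13 to 0.96 for Atf3, -0.22 to 0.077 for Arntl, -0.0058 to 0.57 for Ankrd37, -1.07 to 0.25 for Ndn, -2.16 to 1.16 for S100a4, -2.13 to 0.38 for Col5a2, -1.82 to 1.17 for Pdgfra, -1.26 to 0.42 for Col4a2, -1.07 to 0.99 for Kdm5d, -1.68 to 0.47 for Xist, -1.57 to 0.048 for Egr2, -0.95 to 0.30 for Cdkn1a, -2.42 to 0.59 for Adm and -0.0023 to 0.43 for mt-Cytb. With dox it spanned -0.26 to 0.56 for Dio3, -0.33 to 0.98 for Arntl and -1.20 to 0.99 for Clock. Under library totals the list medians, the clone spreads and the chromosome 8 value moved by less than their spread. The causes were not tested.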

Other observations

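Some genes followed single clones and neither group. Ddx3y, a Y-linked RNA helicase gene named after its values were seen, had 101 and 13.7 CPM in Clock/Bmal1 clones 1 and 7 and 7.18 and 137 CPM in ClockBmal1DN clones 5 and 6, so the high clone was in a different place in each group. With dox the same clones had 87.3 and 12.0 against 9.58 and 121.2 CPM, and the control line had 40.3 CPM without dox. Zfy1, another Y-linked gene, ran the same way at low levels, with 3.28 and 1.25 against 0.933 and 1.42 CPM without dox and 3.45 and 1.36 against 0.958 and 2.35 CPM with dox. Uty, at 86.4 and 89.9 against 63.6 and 76.6 CPM, and Eif2s3y, at 140.4 and 137.8 against 93.5 and 122.2 CPM, had clones 1 and 7 close to each other. Over the 7 Y-linked genes with a mean of at least 1 CPM, the median log2 difference was -0.71 for clone 7 minus clone 1 and 0.58 for clone 6 minus clone 5.

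Clone 7 lacked most of the RNA of a few genes in both of its libraries. Among 16485 genes with at least 1 CPM in some library, and with 0.5 CPM added to every value, 5 were at least 4-fold below all 8 libraries of other clones and the control line in clone 7, and 0 genes met this in clones 1, 5 or 6 or in the upward direction. They were Calml4, Galnt6, Gm36816 and the X-linked homeobox genes Rhox5 and Rhox6. Rhox5 had 203.6 and 22.8 CPM in untreated clones 1 and 7 and 111.4 and 110.6 CPM in clones 5 and 6. Galnt6, which encodes a glycosyltransferase that starts O-linked sugar chains, had 47.2 and 3.35 against 59.6 and 44.8 CPM.

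Fmr1nb, the gene outside chromosome 12 that DESeq2 called without dox (log2 fold change 1.62, adjusted p = 0.00872), had 8.22 and 12.9 CPM in the Clock/Bmal1 clones and 2.71 and 4.09 CPM in the ClockBmal1DN clones. With dox it had 8.72 and 12.2 against 3.51 and 3.41 CPM. The control line, at 9.77 CPM, stood with the Clock/Bmal1 clones, so here the ClockBmal1DN clones were the ones apart. With edgeR it did not pass (adjusted p = 1). Trim67, on chromosome 8, had 4.63 and 7.41 against 1.98 and 2.07 CPM, with 4.51 CPM in the control line (edgeR adjusted p = 1).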
